A study of Mus musculus with 9 samples.

Results

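The 6 arrays of granulosa cells labelled Cre or WNT4 were pooled and set against the 3 arrays labelled GFP, so that all 9 of the 9 arrays took part. The members were chosen by label alone, and the values compared were the log2 expression values of all probe sets other than the Affymetrix controls. The cells are the somatic cells that surround the oocyte in the follicle. They came from mice 20 to 26 days old, of genotypes described only as various, that had received equine chorionic gonadotrophin 48 h before. After attaching overnight in medium with 1% serum, they were infected for 24 h without serum, at a multiplicity of infection of about 50, with an adenovirus for enhanced GFP (control), for Cre recombinase or for WNT4. The genotype behind each array, and whether cells with floxed Ctnnb1, the gene of beta-catenin, stood in every group, are not given in the sources used here. All 3 groups carried an adenovirus, so the GFP group stands for infection with a reporter and not for untreated cells. The labels call the 3 replicates of each group biological and do not say which animals or cultures they came from. The p-values therefore describe variation among these samples, part of which may be technical.

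WNT4 is a secreted ligand of the WNT family that is needed for ovarian development and acts on granulosa cells of growing follicles. WNT ligands bind Frizzled receptors, and in the canonical branch this stabilises beta-catenin, which enters the nucleus and switches on target genes such as Axin2. Infected or damaged cells have general programmes of their own. These include the p53 response, which raises the cell cycle inhibitor Cdkn1a, the interferon response, and the unfolded protein response of the endoplasmic reticulum. What both viruses share against GFP, and whether WNT4 goes further than Cre along the same line, is the question of this comparison.

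Expression values lay between 3.46 and 15.3 (log2), the medians of the 9 arrays between 5.44 and 5.54, and precision is limited by the number of arrays. Of 12 genes that define granulosa cells, 11 had a mean of at least 6, and Inha, a subunit of inhibin, averaged 13.36 ± 0.12 (SD, n = 3) with GFP. The targets did not settle the labels. The brighter of the Wnt4 probe sets held 9.93, 9.16 and 9.13 on the GFP arrays, 11.25, 10.47 and 10.18 on the arrays labelled Cre, and 8.97, 9.89 and 9.16 on those labelled WNT4. It was thus higher on the arrays labelled Cre than on either other set, and the pooled difference was 0.58 ± 0.30 (SE), with overlapping groups. The other Wnt4 probe set differed by 1.13 ± 0.42, also with overlap. Its difference from GFP was 1.30 for Cre and 0.97 for WNT4, and WNT4 minus Cre was -0.33 ± 0.49. The WNT4 mean was thus below the Cre mean on both Wnt4 probe sets, though within the standard error on this one. The 3 probe sets of Ctnnb1 differed by 0.28, 0.29 and 0.36, of which the first became -0.00386 after quantile normalization. Whether these probe sets lie within the viral WNT4 transcript or the recombined part of Ctnnb1 is not known here, and a probe set outside them checks nothing. Every direction below is therefore one between arrays as labelled.

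No probe set passed the test between the pooled treatments and GFP. In limma's fit over 45037 probe sets, 0 had an adjusted p under 0.05 (0% called in each direction), the lowest adjusted p was 0.0796, and 3493 probe sets (7.76%) had an unadjusted p under 0.05. Of these, 2176 were higher with treatment (4.83%) and 1317 lower (2.92%). The total rested on single arrays, being 1745 without GFP 2 and 5473 without WNT4 2. Which direction prevailed depended on the scaling of the arrays: the higher share was 62.3% in the deposited values, 47.9% after quantile normalization, 76.5% with arrays centred on their medians and 29.5% with arrays centred on their 75th percentiles. The last of these moved the median difference of all probe sets to -0.11. A count that uses no variance gave all 6 treated arrays above all 3 GFP arrays for 815 probe sets (1.81%) and below them for 575 (1.28%). For a single probe set such a separation has an exact two-sided permutation p of 0.0238, the smallest that 6 arrays against 3 allow. Of the 84 ways to split 9 arrays into 6 and 3, 1 separates them in a given direction. The 1.28% below GFP is near that share of 1 in 84. Both this p and limma's fit take the 6 treated arrays as independent. The deviations of same-numbered Cre and WNT4 arrays from their group means correlated, however, clearly so only at number 3 (r = 0.21, 0.24 and 0.77). This limits the separations and the pooled standard errors. The genes below are those with the lowest p in each direction, and none of them passed.

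Mapkapk3, a kinase activated by p38 and other MAP kinases, had one of the lowest p in the upward direction. Its values were 7.81, 7.68 and 7.71 with GFP, 8.20, 8.31 and 8.22 with Cre, and 8.62, 8.52 and 8.63 with WNT4. The 3 groups did not overlap and stood in the order GFP, Cre, WNT4, with a pooled difference of 0.68 ± 0.07 (adjusted p = 0.0796, limma). A second Mapkapk3 probe set differed by 0.29 ± 0.09 and overlapped GFP, with 3 of 6 treated arrays above all GFP arrays. Ak1, which encodes adenylate kinase and interconverts adenine nucleotides, held 9.15, 8.89 and 9.05 with GFP, 9.75, 9.58 and 9.48 with Cre, and 10.34, 10.21 and 10.15 with WNT4. The same order held without overlap, and the pooled difference was 0.89 ± 0.09 (adjusted p = 0.0796, limma), while a second Ak1 probe set differed by -0.06. The third such gene was Cdkn1a, the p53 target that encodes the cyclin-dependent kinase inhibitor p21. Its values were 12.26, 12.03 and 11.90 with GFP, 12.67, 12.83 and 13.10 with Cre, and 13.82, 13.36 and 13.64 with WNT4. The lowest treated array lay above the highest GFP array, and the difference of 1.18 ± 0.14 (adjusted p = 0.135, limma) is 2.26-fold on the linear scale. The other Cdkn1a probe set differed by 1.32 ± 0.23 in the same strict order.

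Nt5e, which encodes the ectoenzyme CD73 that makes adenosine outside the cell, had the largest difference among the 10 lowest-p genes in this direction. It held 5.73, 4.76 and 5.40 with GFP, 7.95, 6.94 and 7.26 with Cre, and 9.66, 7.97 and 8.56 with WNT4. Even the lowest Cre array exceeded the highest GFP array by more than a log2 unit, and the pooled difference was 2.76 ± 0.38 (6.78-fold, adjusted p = 0.183, limma). Its other 2 probe sets did not share this, with differences of -0.06 and -0.01. Rnf128, a membrane-bound ubiquitin ligase, held 7.36, 7.19 and 7.24 with GFP, 8.88, 8.21 and 8.76 with Cre, and 9.46, 8.47 and 9.10 with WNT4. All treated arrays lay above GFP, but Cre and WNT4 overlapped, and the pooled difference was 1.55 ± 0.22. Pcyt1a, which controls the rate of phosphatidylcholine synthesis, differed by 1.02 ± 0.14 and Polk, a DNA polymerase that copies past lesions, by 0.79 ± 0.10. Exoc4, a subunit of the exocyst that tethers secretory vesicles, differed by 0.71 ± 0.09, Anxa7, a calcium-dependent phospholipid-binding protein, by 0.68 ± 0.09, and Prep, a prolyl peptidase, by 0.53 ± 0.07. On these probe sets the 5 genes also stood in the strict order GFP, Cre, WNT4 over all arrays. Their other probe sets shared this less: 1 of 4 for Exoc4 held the order (differences of -0.10 to 0.63), that of Prep was separated from GFP (0.57), and those of Polk (0.09), Anxa7 (0.25 and 0.33) and Pcyt1a (0.47 to 1.03) overlapped GFP. Of the 10 lowest-p probe sets, 9 held the strict order, all but that of Rnf128.

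Krt20, an epithelial keratin, had the lowest p of all named probe sets and was lower with treatment. It held 7.44, 7.46 and 7.80 with GFP, 6.20, 6.56 and 6.56 with Cre, and 5.51, 5.26 and 5.82 with WNT4. No groups overlapped, and the pooled difference was -1.59 ± 0.15 (adjusted p = 0.0796, limma), a 3-fold lower level. Ptprd, a receptor tyrosine phosphatase, held 11.41, 11.78 and 12.05 with GFP, 11.06, 11.35 and 10.64 with Cre, and 10.33, 10.62 and 10.56 with WNT4. Treated arrays all lay below GFP, narrowly so for Cre 2, and the pooled difference was -0.99 ± 0.18. The other 6 Ptprd probe sets differed by -0.83 to 0.02. Iqgap2, a scaffold of the actin cytoskeleton, held 8.03, 8.59 and 8.80 with GFP, 7.71, 7.97 and 7.81 with Cre, and 6.94, 7.0 and 7.45 with WNT4. It also lay in strict order, with a difference of -0.99 ± 0.18.

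Bmpr1b, a type I receptor for bone morphogenetic proteins that regulates ovulation rate, held 10.25, 10.88 and 11.26 with GFP, 10.09, 10.31 and 9.40 with Cre, and 9.40, 9.24 and 9.07 with WNT4. Here Cre 2 exceeded GFP 1, so 5 of 6 treated arrays lay below all GFP arrays, and the difference was -1.21 ± 0.25. Aff3, a nuclear protein of the AF4 family, overlapped in the same way with 5 of 6 arrays, at -1.0 ± 0.20. The remaining lower genes were Atp10d, a lipid-transporting ATPase, at -0.80 ± 0.14, Masp1, a protease of the lectin complement pathway, at -0.68 ± 0.13, Rai14, an actin-binding protein, at -0.58 ± 0.08, Me2, the mitochondrial malic enzyme, at -0.51 ± 0.10, and Cd300a, an inhibitory immune receptor, at -0.42 ± 0.08. On these probe sets all 5 were separated from GFP, and Rai14 and Masp1 also held the strict order. Several rested on dim probe sets. The Rai14 probe set averaged 5.43, while the brightest one for that gene, at 11.21, differed by -0.46 ± 0.21 and overlapped GFP. The 3 brighter probe sets of Me2, averaging 10.24 to 10.94 against 6.05 for the one above, differed by -0.22 to -0.44 with overlap, and the other Cd300a probe set by 0.03. In all, 5 of the 10 lower probe sets were in strict order against 9 of the 10 higher ones, a difference that was not tested.

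**Figure D1:**
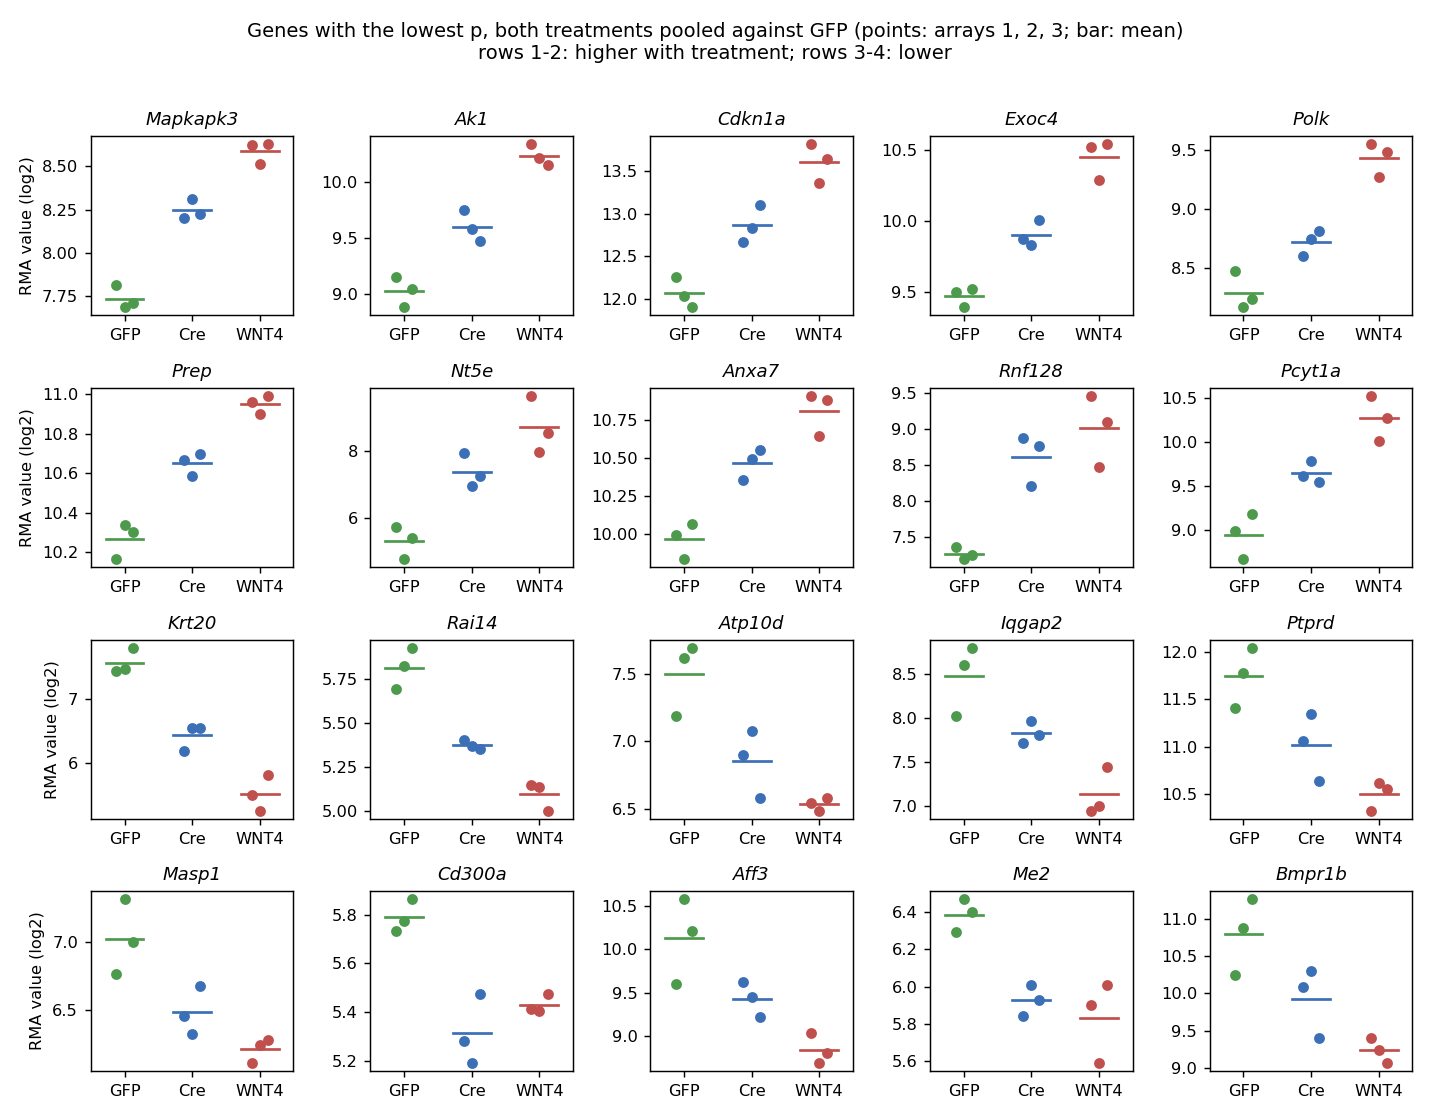
RMA values (log2, vertical axes, each with its own range) of the 10 genes with the lowest p in each direction on every array, by virus (horizontal axis), with points for arrays 1, 2 and 3 and a bar at each mean. Mapkapk3, with 7.68 to 7.81 for GFP, 8.20 to 8.31 for Cre and 8.52 to 8.63 for WNT4, shows the stepwise pattern, while Rnf128 and Cd300a show overlap of Cre and WNT4.

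The graded order was examined through WNT4 minus Cre. The difference itself uses no GFP array, but its p-values in the main fit take their spread from all 9 arrays, GFP included. Again no probe set passed: 0 had an adjusted p under 0.05 in limma (lowest 0.773), and 2808 (6.23%) had an unadjusted p under 0.05, 2282 higher with WNT4 (5.07%) and 526 lower (1.17%). That total was 1434 without WNT4 1, 1811 without Cre 1 and 4610 without WNT4 2, and the share that was higher with WNT4, 81.3%, became 49.5% after quantile normalization and 49.4% with centring on the 75th percentile. The deviations of same-numbered Cre and WNT4 arrays from their group means correlated at 0.21, 0.24 and 0.77. Such deviations cancel out within a group, so the match at number 3 alone raises the values at numbers 1 and 2. With the number as a block in a fit of these 6 arrays alone, 0 again had an adjusted p under 0.05 (lowest 0.602), and 2861 were higher and 846 lower with WNT4 at an unadjusted p under 0.05. Among the 815 probe sets with all treated arrays above GFP, the WNT4 mean exceeded the Cre mean in 737, or 90.4%, against 56.8% of all probe sets and 70.3% of those with a mean of at least 6. The median difference from GFP in this set was 0.29 for Cre and 0.54 for WNT4. By array, the medians were 0.24, 0.29 and 0.30 for Cre 1 to 3, and 0.76, 0.33 and 0.52 for WNT4 1 to 3. All 3 WNT4 medians were above all 3 Cre medians, with WNT4 2 only just so and WNT4 1 farthest out. Without WNT4 1 the share with WNT4 above Cre was 78.1%. Among the 815, the unadjusted p of WNT4 minus Cre was under 0.05 with WNT4 higher in 205 and with WNT4 lower in 1.

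On the lower side the steps were smaller, and most of these probe sets were dim. Their share of all probe sets, 1.28%, was near the 1 in 84 given above. Among the 575 probe sets with all treated arrays below GFP, WNT4 lay below Cre in 425 (73.9%), against 43.2% of all probe sets, and the median differences from GFP were -0.22 for Cre and -0.27 for WNT4. Only 153 of the 575 had a mean of at least 6, against 694 of the 815 above GFP. In those 153 the medians were -0.29 for Cre and -0.44 for WNT4, and WNT4 lay below Cre in 84.3%, against 29.7% of all probe sets that bright. The unadjusted p was under 0.05 with WNT4 lower in 25 of the 575 and with WNT4 higher in 0. Without WNT4 1 the share was 59.6%. After quantile normalization, which made the share of all probe sets with WNT4 above Cre 49.7%, the shares were 75.4% on the higher side and 78.4% on the lower. With arrays centred on the 75th percentile they were 88.6% and 89.3%, against 30.8% of all probe sets with WNT4 above Cre and 69.2% with WNT4 below.

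**Figure D2:**
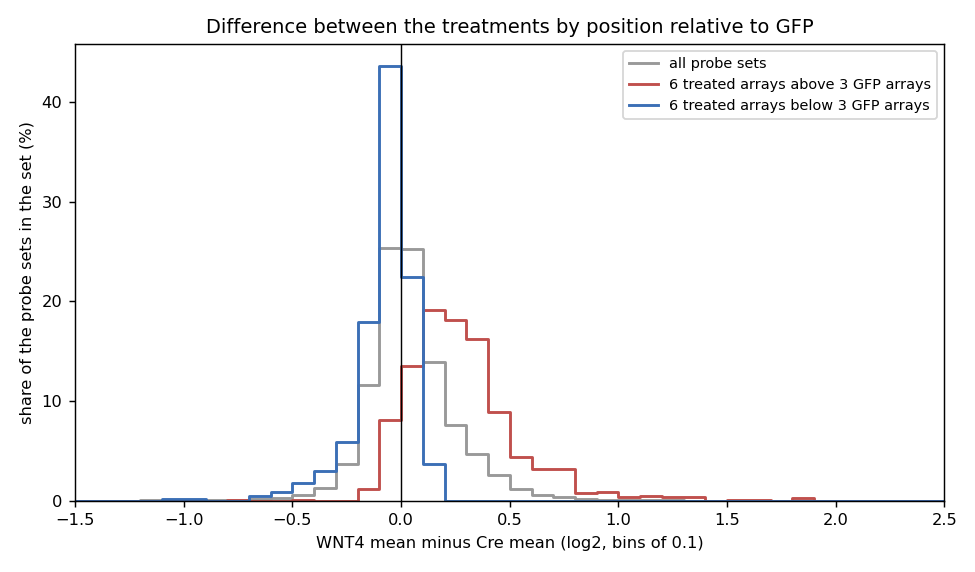
Share of probe sets (%, vertical axis) by the WNT4 mean minus the Cre mean (log2, horizontal axis, bins of 0.1) for all 45037 probe sets, the 815 with the 6 treated arrays above the 3 GFP arrays and the 575 with them below. The set above GFP lies mostly to the right of 0, with a median of 0.24, and the set below GFP lies close to 0, with a median of -0.05 (-0.12 in its 153 members with a mean of at least 6).

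A stricter count asked for all arrays of one group to lie beyond all arrays of the next. The order GFP below Cre below WNT4 held for 193 probe sets (0.429%) and the order WNT4 below Cre below GFP for 54 (0.12%). The other 4 possible orders held for 14 (0.0311%), 9 (0.02%), 5 (0.0111%) and 1 (0.00222%) probe sets, so the 2 orders with Cre in the middle were the most frequent. That remained so after quantile normalization (106 and 87, against 6 to 13 for the others), median centring (225 and 30, against 8 to 13) and centring on the 75th percentile (103 and 187, against 2 to 20). The balance between the upward and the downward order therefore moved with the scaling, while the middle place of Cre did not in these 3 scalings. In a direct test of whether Cre lay off the midpoint of GFP and WNT4, 0 probe sets had an adjusted p under 0.05 in limma (lowest 0.9998). An unadjusted p under 0.05 was found for 489 (1.09%). The pooled contrast and WNT4 minus Cre also gave 0 at this number of arrays, so this count cannot place Cre at the midpoint.

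**Figure D3:**
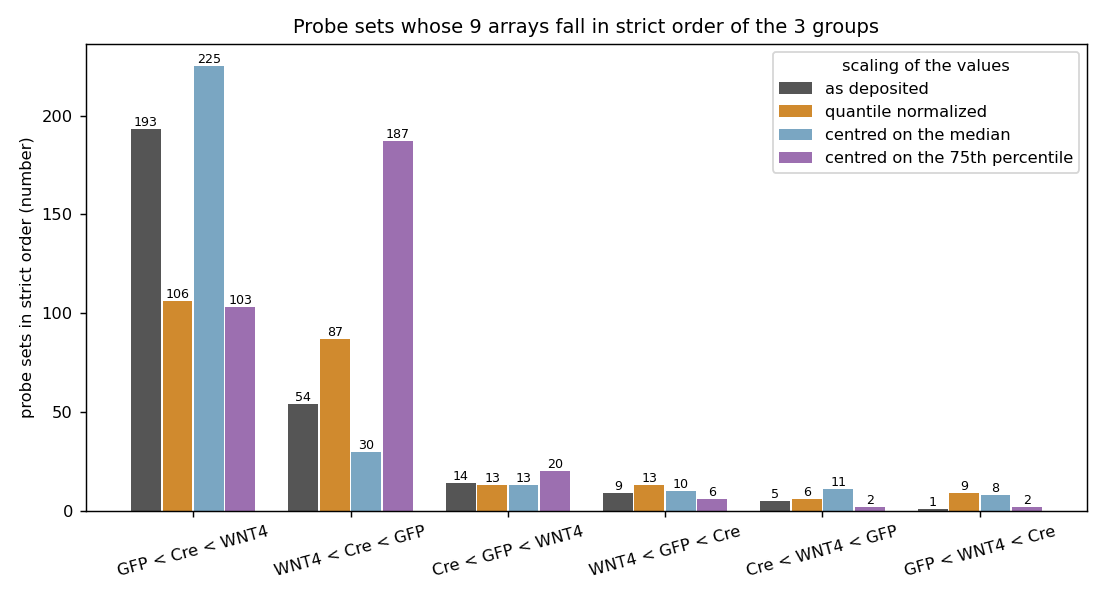
Number of probe sets (vertical axis) whose 9 arrays fall in each strict order of the 3 groups (horizontal axis), under 4 scalings of the values. The orders GFP < Cre < WNT4 (193 as deposited) and WNT4 < Cre < GFP (54) exceed the other 4 orders, which hold 1 to 14, and the balance between the first 2 changes with the scaling.

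Of the probe sets in strict order, 4 with larger steps are described here, chosen after their values were seen. Of the 15 genes of the steroidogenesis list, 0 held the strict order on their brightest probe set, against 109 upward and 19 downward of all 18193 genes. Star, which carries cholesterol into the mitochondrion for steroid synthesis, held on one probe set 6.83, 6.04 and 6.69 with GFP, 7.02, 7.51 and 7.31 with Cre, and 10.32, 8.78 and 8.15 with WNT4. The step from GFP to Cre (0.76 ± 0.48) was smaller than its neighbour from Cre to WNT4 (1.80), and WNT4 1 was the highest array. Tmem229a, a membrane protein gene, stepped by 1.30 ± 0.36 from GFP to Cre and by 1.59 from Cre to WNT4. Trim24, a nuclear receptor cofactor, and Parp9, an interferon-induced ADP-ribosyltransferase family member, stepped by 0.66 and 0.54 from GFP to Cre and by 1.26 and 1.09 from Cre to WNT4. The pooled difference of Trim24 was 1.29 here but 0.15 and 0.46 on its other 2 probe sets. For Tmem229a it was 2.09 here and -0.08 and 2.24 on the other 2, and for Star 1.66 here and 0.98 and 1.44. For Krt20 the step from GFP to Cre was -1.13 ± 0.17 and that from Cre to WNT4 -0.91, with a 95% interval of -1.30 to -0.52 for the latter. For Mapkapk3 the interval of WNT4 minus Cre was 0.16 to 0.53, and for Cdkn1a 0.38 to 1.11, both from limma's fit of all 9 arrays without adjustment for the number of probe sets.

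Other shared differences were of like size with both viruses. Bambi, a decoy receptor of the TGF-beta family and a target of beta-catenin, held 6.46, 6.60 and 6.97 with GFP, 8.53, 7.14 and 8.21 with Cre, and 8.62, 7.59 and 7.71 with WNT4. All treated arrays lay above GFP, the difference was 1.28 for Cre and 1.30 for WNT4, and the interval of WNT4 minus Cre ran from -0.84 to 0.87. Cdkn2b, which encodes the kinase inhibitor p15, held 8.04, 7.94 and 7.86 with GFP, 10.49, 8.74 and 8.80 with Cre, and 10.29, 8.64 and 8.72 with WNT4. Both viruses were again above GFP, led by the arrays numbered 1, and the interval of WNT4 minus Cre was -1.34 to 1.09. Foxl2, the transcription factor that maintains granulosa identity, held 10.54, 10.44 and 10.70 with GFP, 10.23, 10.41 and 10.20 with Cre, and 10.09, 10.25 and 10.38 with WNT4. It was lower on all 6 treated arrays, narrowly so on Cre 2, with differences of -0.28 and -0.32 and an interval of WNT4 minus Cre of -0.30 to 0.21. The Cre and WNT4 arrays alone were also fitted with the replicate number as a block. The intervals were then -0.47 to 0.50 for Bambi, -0.37 to 0.11 for Cdkn2b and -0.33 to 0.25 for Foxl2. These intervals leave room for unequal effects.

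**Figure D4:**
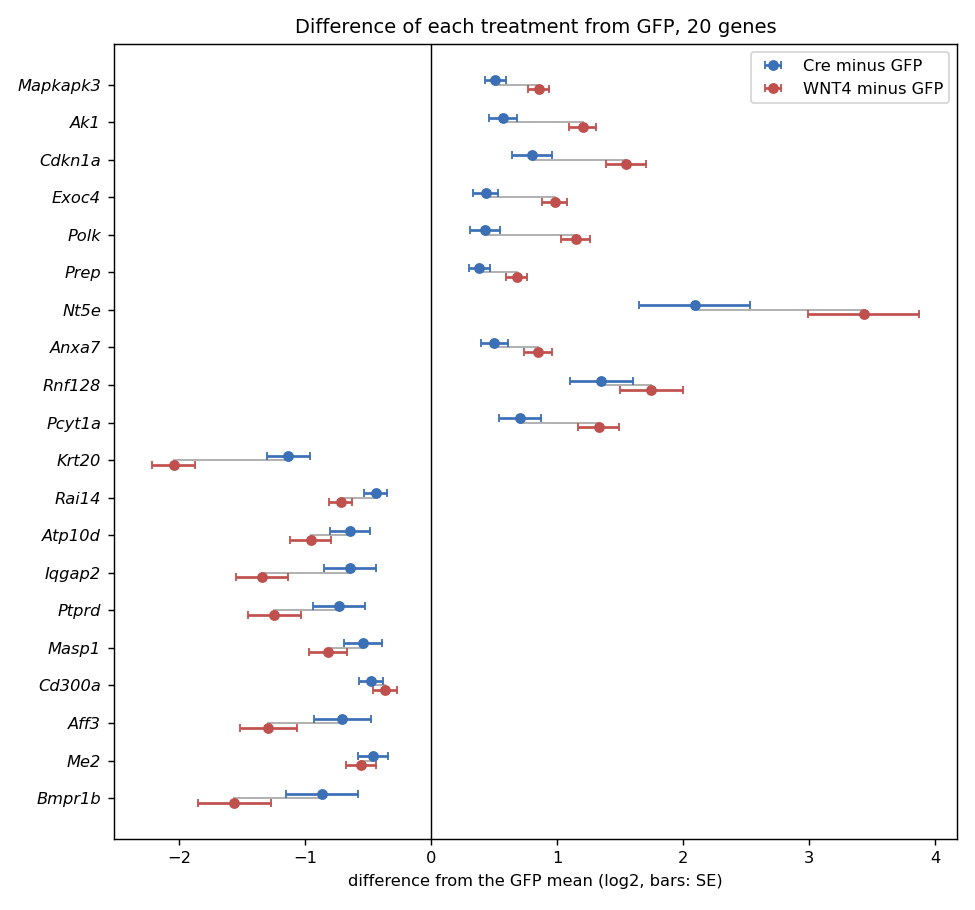
Difference from the GFP mean (log2, horizontal axis) with its standard error for Cre and for WNT4 in the 20 genes with the lowest pooled p (vertical axis). The WNT4 point lies farther from 0 than the Cre point in 19 of them, Cd300a being the exception; for Nt5e the values are 2.09 for Cre and 3.43 for WNT4.

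As a list, the p53 and DNA damage genes stood above GFP on all 6 treated arrays. Of 36 measured, 0 passed the adjusted test, 18 had an unadjusted p under 0.05 with a higher value and 0 with a lower one, against 6.54% and 3.25% of all 18193 genes. All 6 treated arrays lay above GFP in 10 (27.8%) and below it in 0, against 2.45% and 1.2% of all genes. The list's median difference was 0.47, against 0.00 over all genes, with 0.32 to 0.55 under the alternatives tried. The values over all genes, here and for the lists below, include many dim genes. A mean of at least 6 was reached by 33 of the 36 list genes and by 10556 of the 18193. Over all probe sets that bright, the median difference was 0.09, and 694 of 18658 were separated above GFP. The list value, a median over its genes relative to the GFP mean, was 0.31, 0.28 and 0.08 on Cre 1 to 3 and 0.81, 0.54 and 0.49 on WNT4 1 to 3, while the GFP arrays spanned -0.04 to 0.05.

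Among its members, Mdm2, the ubiquitin ligase that restrains p53, held 9.81, 9.73 and 9.77 with GFP, 10.15, 10.33 and 10.46 with Cre, and 11.02, 10.39 and 10.84 with WNT4. Treated arrays lay above GFP throughout, with a difference of 0.76 ± 0.14, and Cre 3 overlapped WNT4 2. Btg2, an antiproliferative gene, held 8.58, 8.34 and 8.80 with GFP, 9.0, 9.39 and 9.79 with Cre, and 10.30, 9.85 and 10.19 with WNT4. It lay in strict order, at 1.18 ± 0.18. Ccng1 (cyclin G1) differed by 0.80 and Ephx1 (microsomal epoxide hydrolase) by 0.82, both separated from GFP. Bbc3 (Puma) and Pidd1, which act in cell death, differed by 0.81 and 0.48 and were separated as well. The exceptions were Ddit4l at -0.59, Sesn1 at -0.19, Gadd45a at -0.16 and Ddb2 at -0.06, none with an unadjusted p under 0.05. Several members act in more than one list, Tap1 and Bbc3 among them.

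The core of a p53 element, searched on both strands as CATG, 6 bases of any kind and CATG, was found in the promoter window of 1 of the 28 p53 list genes with a window, Cdkn1a, and in 0.833% of 27025 genes. Windows ran from 250 bases before to 50 after each gene's start (RefSeq, GRCm38.p6). The ER stress element (CCAAT, 9 bases, CCACG) was found in 9 of 28 unfolded protein genes (32.1%) against 0.137% of all genes, and the core of the interferon-stimulated response element (GAAA, 2 bases, GAAA) in 12 of 22 interferon genes (54.5%) against 3.99%. The core of the hypoxia response element (ACGTG) was found in 19 of 26 hypoxia and glycolysis genes (73.1%) against 21.8%. One stretch is shown for each element but that of hypoxia, from a gene whose levels are described here, with the match in capitals. They lie at chr17:29090879-29090978 (plus strand) for Cdkn1a, chr2:34771984-34772083 (plus strand) for Hspa5 and chr12:26456518-26456617 (minus strand) for Rsad2, where the match is on the strand opposite to the one printed.
Cdkn1a: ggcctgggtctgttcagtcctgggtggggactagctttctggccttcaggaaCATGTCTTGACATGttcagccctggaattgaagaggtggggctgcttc
Hspa5: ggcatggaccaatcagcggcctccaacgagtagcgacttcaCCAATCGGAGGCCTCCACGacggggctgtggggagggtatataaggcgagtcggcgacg
Rsad2: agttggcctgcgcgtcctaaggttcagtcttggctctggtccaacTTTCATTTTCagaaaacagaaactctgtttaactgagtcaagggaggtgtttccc
A match describes the letters in the window and not a bound site. The shares depend only on which genes a list holds and use no array value, so they are no evidence about these arrays. The Cdkn1a stretch belongs to a gene above GFP with both Cre and WNT4, whereas for Hspa5 all 3 Cre arrays and for Rsad2 the array Cre 2 lay within the GFP range.

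Genes of MHC class I antigen processing also stood above GFP with both viruses. Of 12 measured, 7 (58.3%) had an unadjusted p under 0.05 with a higher value and 0 with a lower one, against 6.54% and 3.25% of all genes. In 3 (25%, against 2.45%) the treated arrays were separated above GFP, and the median difference was 0.66 (0.42 for Cre, 0.91 for WNT4). B2m, the light chain shared by class I molecules, held 11.60, 11.65 and 11.66 with GFP, 12.03, 12.08 and 12.55 with Cre, and 13.44, 12.45 and 13.13 with WNT4. Treated arrays were all above GFP, at 0.98 ± 0.21, with Cre 3 above WNT4 2. Tap1, a peptide transporter subunit, held 7.83, 7.46 and 7.63 with GFP, 8.18, 8.19 and 8.29 with Cre, and 9.49, 8.83 and 8.68 with WNT4. It lay in strict order, at 0.97 ± 0.17.

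The interferon and antiviral genes, 29 measured, had a median of 0.76 (0.29 for Cre, 1.20 for WNT4), with 12 (41.4%) at an unadjusted p under 0.05 and higher, 1 (3.45%) lower, and 6 (20.7%) separated above GFP. The shares of all genes were 6.54%, 3.25% and 2.45%. The arrays differed widely: the list stood at 0.14, 0.09 and 0.48 on Cre 1 to 3 and at 1.72, 0.39 and 0.81 on WNT4 1 to 3. Irf9, a subunit of the interferon-activated transcription complex, held 5.97, 5.75 and 6.27 with GFP, 6.51, 6.62 and 7.10 with Cre, and 8.80, 6.84 and 7.42 with WNT4. It was above GFP on all treated arrays, at 1.22 ± 0.37, with Cre and WNT4 overlapping. Rsad2 (viperin) held 6.74, 6.40 and 6.28 with GFP, 7.10, 6.53 and 7.95 with Cre, and 11.22, 8.05 and 9.25 with WNT4. Cre 2 lay below GFP 1, so 5 of 6 treated arrays were above all GFP arrays, and the pooled difference of 1.88 ± 0.60 combined 0.72 for Cre with 3.04 for WNT4. Without WNT4 1 and GFP 2 the list's median was 0.36. Zbp1, a sensor of left-handed nucleic acids, was the lower member, at -0.41 ± 0.11, and Mx1 and Mx2 differed by -0.13 and 0.08.

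The unfolded protein list shows a pooled value that Cre did not share. Its 32 genes had a pooled median of 0.55, made of 0.04 for Cre and 1.07 for WNT4, and 9 (28.1%, against 6.54% of all genes) had an unadjusted p under 0.05 and higher, 0 lower. The list stood at 0.03, -0.01 and 0.07 on the Cre arrays and at 1.85, 0.35 and 1.16 on the WNT4 arrays, and its pooled median was 0.36 without WNT4 1 and GFP 2. Hspa5, the chaperone BiP, held 13.00, 13.32 and 13.52 with GFP, 13.16, 13.30 and 13.27 with Cre, and 15.17, 13.75 and 14.56 with WNT4. GFP and Cre overlapped fully and all WNT4 arrays lay above both, with WNT4 minus Cre at 1.25 (interval 0.56 to 1.94). Herpud1, which acts in degradation of misfolded proteins, held 8.91, 9.51 and 9.35 with GFP, 9.51, 9.18 and 9.30 with Cre, and 12.67, 10.44 and 11.38 with WNT4. It showed the same arrangement, with 0.08 for Cre against GFP and 2.24 for WNT4. Eif2ak3 (the kinase PERK) and Dnajb9 were the 2 members (6.25%, against 2.45% of all genes) with all 6 treated arrays above GFP, at 0.50 and 0.99.

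The hypoxia and glycolysis list had the largest pooled median, 1.03, but rested on a pair of arrays. It stood at -0.13, 0.13 and 2.51 on Cre 1 to 3, at 0.68, 0.15 and 2.95 on WNT4 1 to 3, and at 0.13 on GFP 3. Of its 27 genes, 0 had an unadjusted p under 0.05 in either direction in limma's fit, and 2 (7.41%, against 2.45% of all genes) were separated above GFP. Its median was 0.55 without Cre 3, 0.56 without WNT4 3 and 0.25 without the 3 arrays numbered 3. Slc2a1, a glucose transporter, held 8.88, 8.56 and 8.87 with GFP, 8.30, 8.83 and 12.43 with Cre, and 8.72, 8.42 and 12.51 with WNT4. The arrays Cre 3 and WNT4 3 alone were high. Vegfa, the angiogenic factor, held 6.83, 7.14 and 7.14 with GFP, 7.25, 7.43 and 10.47 with Cre, and 9.17, 7.43 and 10.65 with WNT4. It was above GFP on all 6 treated arrays, yet its difference of 1.70 ± 0.82 came with differences within each treatment larger than itself. The NF-kappaB and inflammatory list (23 genes, median 0.26) also stood highest on Cre 3 (0.75) and WNT4 3 (0.92). Of its genes, 0 were separated, against 2.45% above and 1.2% below GFP over all genes. Its median was 0.08 without Cre 3, 0.04 without WNT4 3 and 0.03 without the arrays numbered 3. The 3′ minus 5′ difference of the Gapdh control probe sets was lowest on these arrays, 0.95 on Cre 3 and 1.36 on WNT4 3, against 1.77 to 2.17 on the others. That of beta-actin was 1.07 and 1.30 on them, within the 0.98 to 1.38 of the others. Both controls were highest on WNT4 1 (2.17 and 1.38), the array on which the unfolded protein, interferon and p53 lists also stood highest. Their part in these results was not tested.

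**Figure D5:**
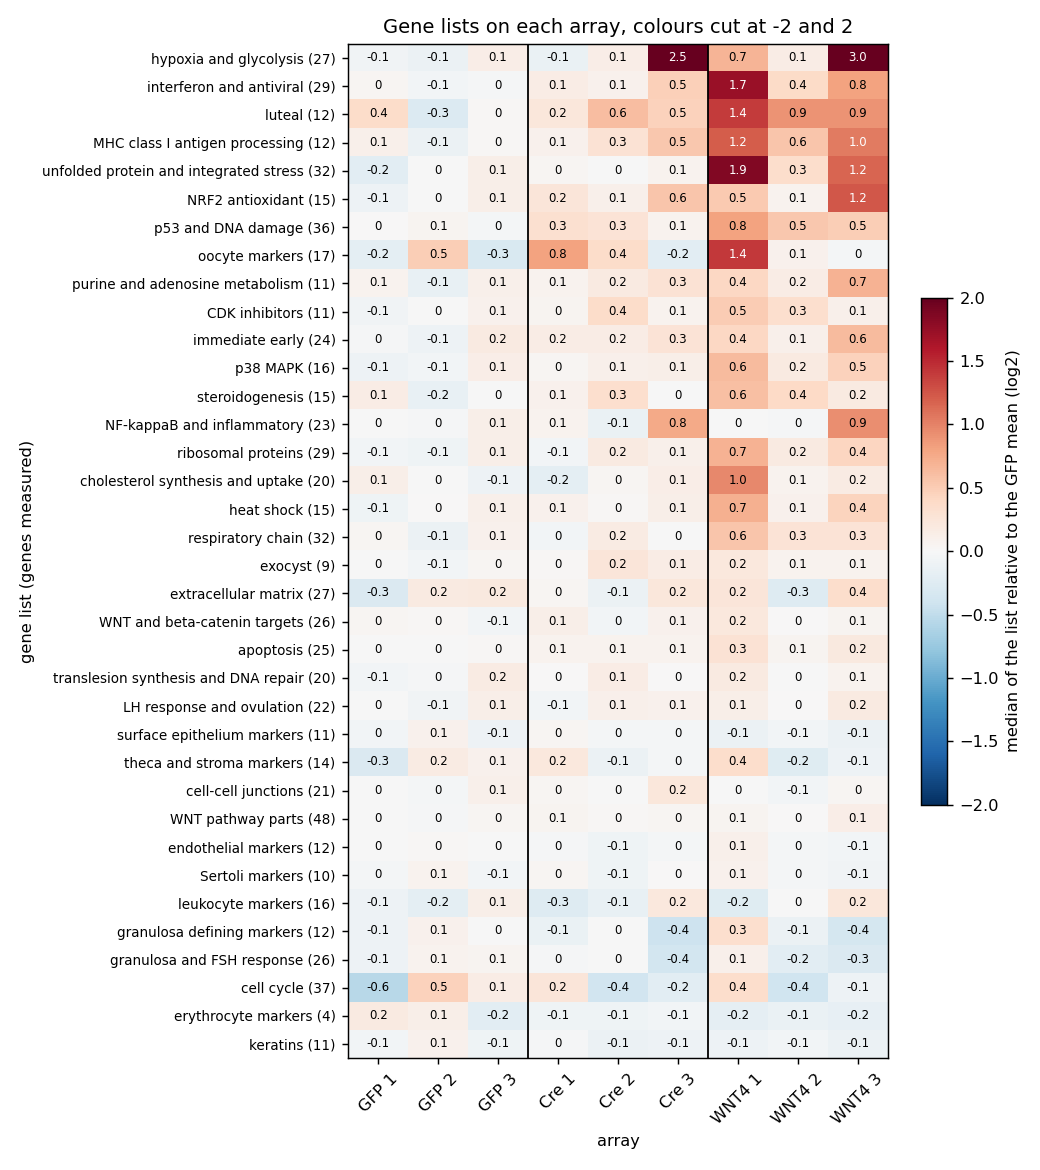
Median difference from the GFP mean (log2, colour and printed value) of each gene list (vertical axis, genes measured in brackets) on each array (horizontal axis). The p53 row is positive on all 6 treated arrays, from 0.08 to 0.81, the unfolded protein row only clearly so on the WNT4 arrays, and the hypoxia row reaches 2.51 and 2.95 on Cre 3 and WNT4 3.

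Among ovarian genes, the luteal list of 12 had a median of 0.72 (0.40 for Cre, 1.04 for WNT4), with 5 (41.7%, against 6.54% of all genes) at an unadjusted p under 0.05 and higher and 3 (25%, against 2.45%) separated above GFP. The separated genes were Parm1, at 0.66 ± 0.10, Vegfa and Cdkn1a. Of these, Cdkn1a also stands in the p53 list. Vegfa also stands in the hypoxia and glycolysis list and was highest on Cre 3 and WNT4 3. The GFP arrays themselves spanned -0.27 to 0.37 for this list, and Cre 1 (0.22) lay within that span. In the steroidogenesis list, 15 genes, the median was 0.28 (0.14 after quantile normalization) and 5 (33.3%) had an unadjusted p under 0.05 and higher, 1 (6.67%) lower, against 6.54% and 3.25% of all genes. Scarb1, the lipoprotein receptor that supplies cholesterol, held 11.40, 10.92 and 10.78 with GFP, 11.05, 11.51 and 11.63 with Cre, and 12.60, 11.92 and 11.89 with WNT4. Only Cre 1 lay within the GFP range, and the difference was 0.73 ± 0.21. Cebpb, a transcription factor of the ovulatory response to luteinizing hormone, ranged from 9.09 to 9.35 with GFP, reached at least 9.45 with Cre and lay between 9.93 and 10.37 with WNT4. It was above GFP on all treated arrays, at 0.74 ± 0.14, while that list of 22 genes had a median of 0.07 with 2 (9.09%, against 2.45% of all genes) separated above GFP.

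Granulosa genes under follicle-stimulating hormone control that had an unadjusted p under 0.05 were all lower with Cre and WNT4 pooled than with GFP. Of 26 measured, 0 had an unadjusted p under 0.05 and higher, 6 (23.1%, against 3.25% of all genes) had one and were lower, 2 (7.69%, against 1.2%) were separated below GFP, and the median was -0.08, or -0.28 after quantile normalization. Igf1, a growth factor of the follicle, held 10.75, 11.66 and 11.57 with GFP, 11.45, 10.53 and 10.69 with Cre, and 9.22, 9.20 and 10.01 with WNT4. It was lowest with WNT4, Cre 1 lay within the GFP range, and the difference was -1.15 ± 0.29. Esr2, the estrogen receptor of granulosa cells, differed by -0.94 ± 0.31 with 4 of 6 treated arrays below GFP. Fshr, the receptor for follicle-stimulating hormone, and Inha differed by -0.01 ± 0.24 and -0.04 ± 0.22, with 95% intervals of -0.56 to 0.53 and -0.54 to 0.46. The defining granulosa markers, 12 genes, had a median of -0.05, with Foxl2 and Amh, the gene of anti-Müllerian hormone, separated below GFP. They were 2 of 12 (16.7%), against 1.2% of all genes. In bulk RNA, fewer cells of a type and less RNA per cell cannot be told apart.

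Within the WNT pathway, ligands and receptors were mixed. Of 48 pathway parts, 4 (8.33%) had an unadjusted p under 0.05 and higher and 1 (2.08%) lower, shares near the 6.54% and 3.25% of all genes. In 3 (6.25%, against 2.45%) the treated arrays were separated above GFP, and the median was 0.02. The receptor Fzd1 held 7.52, 7.34 and 7.75 with GFP, 9.35, 8.24 and 8.99 with Cre, and 8.48, 8.04 and 8.84 with WNT4. All treated arrays were above GFP, at 1.12 ± 0.25, and the Cre mean was the higher of the treatments (1.32 against 0.92). The ligand Wnt5a, a noncanonical WNT, held 9.45, 9.43 and 9.44 with GFP, 9.77, 9.83 and 10.47 with Cre, and 10.77, 10.03 and 10.77 with WNT4. It was above GFP throughout, at 0.83 ± 0.20, and the receptor Fzd7 was so at 0.50 ± 0.16. The receptors Fzd3 and Fzd4 differed by -0.55 and -0.73.

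The targets of beta-catenin, 26 genes, had a median of 0.13 (0.13 for Cre, 0.10 for WNT4), with 4 (15.4%, against 6.54% of all genes) at an unadjusted p under 0.05 and higher, 0 lower, and 3 (11.5%, against 2.45%) separated above GFP, namely Bambi, Apcdd1 and Jun. The median was 0.07 without GFP 2 and 0.52 when probe sets with a mean under 6 were left out. Apcdd1, an inhibitor of WNT signalling, differed by 0.86 ± 0.21 and Jun, a subunit of the AP-1 transcription factor, by 1.05 ± 0.27. Axin2, a feedback inhibitor and a common readout of the canonical pathway, held 7.42, 6.78 and 7.24 with GFP, 9.27, 7.94 and 8.47 with Cre, and 8.14, 7.39 and 7.87 with WNT4. Here WNT4 2 lay below GFP 1, and the pooled difference was 1.03 ± 0.29. Cre (1.41) stood above WNT4 (0.65), so the means rose in the order GFP, WNT4, Cre. A second Axin2 probe set differed by 0.00. Lef1, Ccnd1, Nkd1, Notum and Dkk1 had differences between -0.10 and -0.03.

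Proliferation genes showed no common direction. The 37 cell cycle genes had a median of -0.09, 1 (2.7%, against 6.54% of all genes) had an unadjusted p under 0.05 and higher, 0 lower, and 0 were separated either way, while the GFP arrays alone spanned -0.56 to 0.47. Markers of other cell types were examined for the same arrays. No gene of the theca and stroma (14 measured), leukocyte (16), surface epithelium (11), erythrocyte (4), Sertoli (10) or oocyte (17) lists was separated from GFP in either direction. Over all genes, 2.45% were separated above GFP and 1.2% below. A count of 0 in lists this short, or in the cell cycle list, is near those shares and does not show that nothing changed. Of 12 endothelial genes, 1 (8.33%), Emcn, was separated below GFP, at -0.25. The oocyte list had a median of 0.42 (0.17 without WNT4 1, 0.25 without GFP 3 and 0.66 without GFP 2), with array values of -0.19, 0.49 and -0.30 for GFP, 0.81, 0.36 and -0.21 for Cre, and 1.42, 0.09 and -0.04 for WNT4. It was thus highest on WNT4 1, the array on which the unfolded protein, interferon, p53 and luteal lists were also highest, and its part in those results was not tested. Gdf9, a growth factor made by the oocyte, held 8.80, 9.70 and 8.47 with GFP, 10.07, 9.64 and 8.85 with Cre, and 10.76, 9.14 and 9.03 with WNT4, so oocyte transcripts were measured in every group.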

How the data were processed

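Granulosa cell RNA was measured on 9 Affymetrix mouse arrays, 3 per virus, and the sample labels gave the groups and replicate numbers. The authors deposited log2 values from RMA, as the submitters' processing notes record. The log2 scale was judged from the values, and no RMA version is given in the sources used. RMA already reduces differences in overall signal between arrays. Array scans were not used here.

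Of 45101 rows, 64 controls were left out. Names came from the platform annotation, updated by Entrez ID through RefSeq (GRCm38.p6): 34945 probe sets had 1 symbol (34741 matched), 932 several and 9160 none here, giving 18193 genes. limma 3.58.1 in R 4.3.3 fitted the 3 group means (6 residual and 2.80 prior degrees of freedom), with contrasts for the treatment average minus GFP, WNT4 minus Cre, and Cre minus the midpoint of GFP and WNT4, two-sided, with Benjamini-Hochberg adjustment over all 45037 probe sets and a threshold of 0.05. Errors of differences are standard errors. The procedure was tested on simulated data.

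List genes were represented by their brightest probe set, and 727 of 807 entries of 36 lists were measured. Named were the 10 genes with the lowest p each way, from each list up to 3 lowest-p members, and all probe sets of Wnt4 and Ctnnb1; other genes are examples from the lists, chosen after their values were seen. The comparison and the lists were chosen with earlier results of these data known. Alternatives were a replicate block, a single treated mean, other scalings, a filter on dim probe sets, an intensity trend, 1 probe set per gene, array weights, other thresholds, and fits without single arrays, without the arrays numbered 3, or without WNT4 1 and GFP 2. Among same-numbered arrays, GFP deviated together with Cre and WNT4 only at number 3 (r = 0.31 and 0.35). At numbers 1 and 2 it did not (-0.04 and -0.31 for Cre, -0.08 and 0.01 for WNT4). The numbers were therefore not taken to pair GFP arrays with the others. Between same-numbered arrays of Cre and WNT4 the correlations were 0.21, 0.24 and 0.77. Deviations from a group mean cancel out within the group, so a match at number 3 alone raises the values at numbers 1 and 2. Differently numbered arrays were not compared, and pairing at numbers 1 and 2 is not shown. WNT4 minus Cre was also fitted on these 6 arrays with the number as a block, an alternative added after seeing the data.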

Additional observations from a re-analysis of the deposited data

Results flagged for a closer look

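In 6 of 77 values tested among the 6 treated arrays, 1 array stood apart from the other 5 by Dixon's criterion, which chance meets in about 1 of 20 groups. On WNT4 1, Lgals3bp, a secreted glycoprotein induced by interferon, was at 9.76, against 7.48 to 8.08 on the other treated arrays, and Cfap61, a gene of cilia and flagella, was at 6.74, against 7.66 to 8.13. The cholesterol synthesis and uptake list was at 0.964 on WNT4 1 relative to GFP, against -0.191 to 0.166, and the endothelial marker list at 0.107, against -0.0862 to -0.0169. On WNT4 3, the WNT pathway list was at 0.133, against 0.00836 to 0.0535. On Cre 3, the cell-cell junction list was at 0.228, against -0.0611 to 0.0325. These 6 treated arrays hold 2 groups, so a group difference adds to their spread.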

How the results depend on the processing

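No probe set passed for the pooled treatments as deposited, and a few did under some alternatives. With the replicate number as a block, 3 probe sets were higher (Cdkn1a at 1.32, Nt5e at 2.76 and an unnamed one at 2.41) and 1 lower, Krt20 at -1.59. Quantile normalization and array weights each gave 1 higher, an unnamed probe set, and 1 lower, Krt20. Centring on the 75th percentile gave 1 lower and 0 higher, as did 1 probe set per gene, Krt20 in both. At an adjusted p under 0.10 there were 3 higher and 1 lower. Leaving out single arrays gave 0 higher and 0 to 1 lower, the 1 being Gm15866 (-2.88) without GFP 1. WNT4 minus Cre and the midpoint contrast gave 0 under every alternative run. The share of passing probe sets with Cre in the middle has no value, since 0 passed, and was not run.

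The following counts were chosen after seeing the data. Treated arrays all above GFP: 431 with 75th percentile centring, and 872 to 2679 without single arrays. All below: 366 with median centring, 1170 with 75th percentile centring, 153 without dim probe sets, and 658 to 3333. Order GFP, Cre, WNT4 upward: 106 with quantile normalization, 103 with 75th percentile centring, and 203 to 535. Downward: 87, 30 (median centring), 187, 23 (without dim probe sets), and 84 to 194. Fewer arrays separate more often by construction. Without single arrays, the share with WNT4 beyond Cre ranged from 78.1% to 91.5% on the higher side (90.4% with all) and from 59.6% to 73.0% on the lower (73.9% with all). Over the scalings and the filter on dim probe sets it ran from 75.4% to 94.7% and from 68.9% to 89.3%. Without WNT4 1 and GFP 2 it was 70.9% and 57.7%.

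Of 695 recomputed gene values, 686 kept their direction and side of the threshold, 8 crossed it, and 1 reversed, a Ctnnb1 probe set at -0.00386 after quantile normalization; the cause was not tested. Of 628 list medians, 40 took the opposite sign, among them ribosomal proteins (0.25 as deposited, -0.03 after quantile normalization). Of the 40, 15 came from another scaling, 22 from leaving out arrays and 3 from array weights. Small medians thus have no settled direction, and 3 arrays a group limit every test.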

Other observations

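Several stress and metabolic groups not described above had positive medians, and no member passed limma's adjusted test. Of 24 immediate early genes, 7 (29.2%) had an unadjusted p under 0.05 and higher and 0 lower, against 6.54% and 3.25% of all genes, and the median was 0.28 (0.10 after quantile normalization). Klf4, a zinc finger transcription factor, held 8.08, 7.55 and 7.84 with GFP, 9.05, 8.49 and 9.78 with Cre, and 11.38, 9.24 and 10.51 with WNT4. All treated arrays were above GFP, at 1.92 ± 0.44, with Cre 3 above WNT4 2. Of 15 NRF2 antioxidant genes, 6 (40%) had such a p and were higher, 0 lower, and the median was 0.54 (0.34 without the arrays numbered 3). Nfe2l2, which encodes NRF2 itself, held 10.94, 10.80 and 11.05 with GFP, 11.34, 11.31 and 11.45 with Cre, and 12.24, 11.28 and 11.96 with WNT4. It was above GFP on every treated array, at 0.67 ± 0.18, with WNT4 2 below all Cre arrays. In the heat shock list (15 genes, median 0.23, or 0.01 after quantile normalization), the inducible chaperones Hspa1b and Hspa1a were separated above GFP, at 0.70 ± 0.18 and 0.48 ± 0.14. They were 2 of 15 (13.3%), against 2.45% of all genes.

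Among structural genes, Nectin2, a cell adhesion molecule, held 8.13, 7.78 and 8.0 with GFP, 8.73, 8.31 and 8.52 with Cre, and 9.03, 8.67 and 8.87 with WNT4. It was above GFP on all treated arrays, at 0.72 ± 0.13, in a junction list of 21 genes whose median was 0.03. Of 27 extracellular matrix genes, 3 (11.1%) had an unadjusted p under 0.05 and higher and 2 (7.41%) lower, against 6.54% and 3.25% of all genes. Lama5, a laminin chain, was the one separated from GFP (3.7%, against 1.2% of all genes below GFP), at -0.30 ± 0.09. Thbs1, a matricellular inhibitor of angiogenesis, differed by -1.19 ± 0.41, with 3 of 6 treated arrays below all GFP arrays. In the apoptosis list (25 genes, median 0.11, or 0.01 after quantile normalization), Bbc3, Apaf1 and Mcl1 were separated above GFP. They were 3 of 25 (12%), against 2.45% of all genes.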
